A study of Homo sapiens with 12 samples.

Results

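DPP4, a peptidase of the enterocyte brush border, and 7 further genes of enterocyte differentiation (KRT20, CDH17, VIL1, EZR, CDX2, CEACAM1 and HNF4A) were followed in HCT116 cells after MEK1/2 inhibition. They were picked by gene symbol and make up 8 of the 15798 genes with a row in the count table. DPP4 was selected on values of these same libraries, since both its mRNA and its ribosome density were known to be higher with the inhibitor. Its levels are therefore given as a description, without a test. The other 7 genes were chosen as companions in the same cell program.

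HCT116 is an established human colorectal cancer line. Dishes received either the solvent DMSO or 100 nM of trametinib, which inhibits the kinases MEK1 and MEK2, and were harvested after 24 h. From each lysate, randomly fragmented input RNA was sequenced as a measure of mRNA abundance, and the short RNA pieces that ribosomes shield from RNase I (footprints) were sequenced from purified monosomes. This gave 4 groups of 3 libraries, input and footprints for each treatment, 12 libraries in all, from a single line after a short cycloheximide treatment that holds ribosomes on the mRNA.

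Enterocytes are the absorptive cells of the intestinal lining. As they differentiate, they form a brush border, a dense field of microvilli that rests on bundled actin filaments and carries digestive enzymes and transporters on its surface. Transcription factors of the CDX and HNF4 families are known to drive this program. DPP4 is a membrane-bound serine protease that removes dipeptides from the N-terminus of peptides such as the incretin hormone GLP-1, and it is a classical brush border enzyme. Ribosome density, the footprints of a gene divided by its input, is used to compare how heavily its mRNA is occupied by ribosomes.

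Levels are given as CPM, the counts of a gene per 1e6 counts of its library, scaled with TMM factors over all 12 libraries. They are shares of a library, so a change of total RNA or of total protein synthesis per cell does not appear in them. Input libraries held 2276693 to 2845568 counts and footprint libraries 10127477 to 19181588. DUSP6, a target gene of the MAPK pathway, was at 229 ± 33.8 CPM in DMSO input and at 1.08 ± 0.994 CPM in trametinib input (SD, n = 3), in keeping with the treatment labels. The epithelial genes EPCAM, CDH1, KRT8, KRT18 and KRT19 were at 67.2 CPM or more in all input libraries. The secretory markers MUC2, SPDEF and ATOH1 had at most 3 input counts each in a group, and TFF3 and CHGA had no row in the count table. Of 6 markers of blood, vessel and stromal cells, COL1A1 alone passed the count filter, at 11.0 CPM in DMSO and 9.51 CPM in trametinib input.

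Dish 1 of the DMSO group stood apart. Over 7068 genes, its libraries deviated from their group mean by 0.298 (input) and 0.304 (footprints) on the log2 scale, against 0.0898 to 0.279 for the other libraries. Its deviations in input and footprints correlated with r = 0.826 across genes, against -0.139 to 0.342 in the other 5 dishes. Results that rest on this dish are given with and without it.

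Comparisons used edgeR's quasi-likelihood test with Benjamini-Hochberg adjustment, called at an adjusted p below 0.05, over the 10663 genes that reached 10 counts in 3 or more of the input libraries. DPP4, EZR, CDX2 and HNF4A passed this filter. KRT20, CEACAM1, CDH17 and VIL1 did not, and their counts are described further on. Labels name 3 replicates per treatment.

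DPP4 (chromosome 2, 161992245 to 162074394, minus strand, GRCh38, 26 exons) had the largest fitted changes of the 4 tested members in input, footprints and density. In DMSO input it had 29, 26 and 28 counts, in trametinib input 87, 65 and 76. These are 10.3, 9.20 and 10.8 CPM in DMSO and 34.1, 27.6 and 32.1 CPM in trametinib. All 3 trametinib libraries lay above all 3 DMSO libraries, and the means of 10.1 ± 0.829 and 31.3 ± 3.30 CPM (SD, n = 3) stood in a ratio of 3.09.

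DPP4 footprints numbered 242, 147 and 246 in DMSO and 2151, 1582 and 1296 in trametinib. In CPM they were 14.4, 15.2 and 14.6 in DMSO, and 111, 109 and 104 in trametinib. The groups were again far apart, with means of 14.7 ± 0.432 and 108 ± 3.72 CPM and a ratio of 7.32. Replicates of each group lay closer together in footprints than in input, where the low counts leave a counting error of 18.6 to 19.6% in a DMSO library and 10.7 to 12.4% in a trametinib library. In footprint libraries this error was 6.38 to 8.25% and 2.16 to 2.78%.

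**Figure D1:**
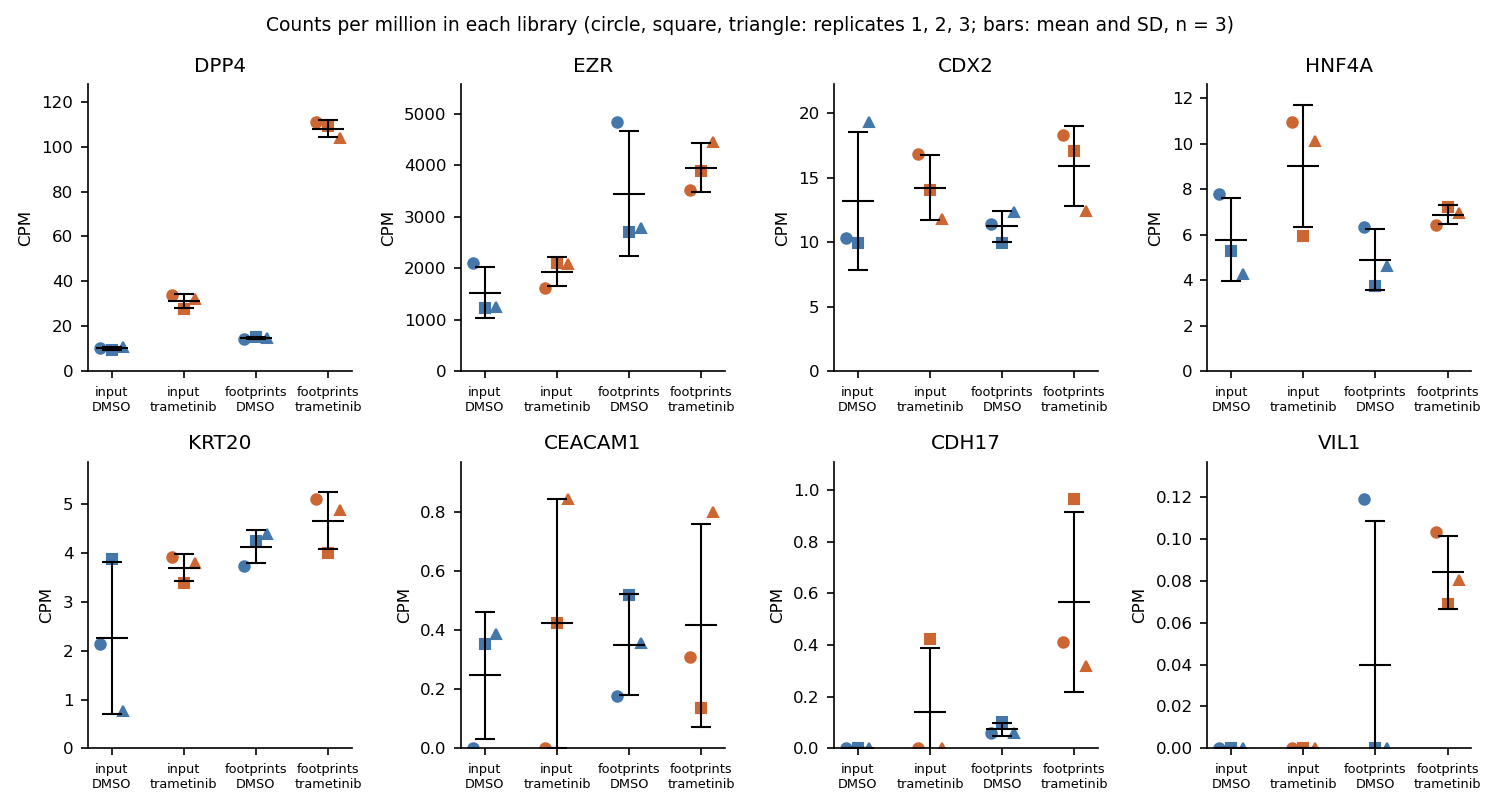
Level of each of the 8 genes in all 12 libraries, in CPM (vertical axis, from 0, scaled for each gene), with 1 point per library and bars for mean and SD of 3 libraries. DPP4 footprints with trametinib sit at 104 to 111 CPM, above the 14.4 to 15.2 CPM with DMSO, while groups overlap in input for EZR, CDX2, HNF4A and KRT20.

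Dividing footprints by input of the same dish gave DPP4 ribosome densities of 1.40, 1.66 and 1.35 with DMSO and of 3.26, 3.95 and 3.24 with trametinib. The lowest trametinib dish was thus well above the highest DMSO dish. The means were 1.47 ± 0.164 and 3.48 ± 0.405 (SD, n = 3), a ratio of 2.37. With trametinib, DPP4 thus took a larger share of the input, and a still larger share of the footprints. As a ratio of shares, this density does not give the number of ribosomes on an mRNA. In the fits, the log2 changes were 1.64 (SE 0.21) in input, 2.81 (SE 0.11) in footprints and 1.24 (SE 0.19) in ribosome density.

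Among the 10663 tested genes, these changes ranked 230th from the highest in input, 52nd in footprints and 26th in ribosome density. The median change over all genes was -0.00145, -0.0129 and 0.07 on the log2 scale. Input changes were called higher for 15.4% of all tested genes and lower for 16.8%, and footprint changes for 23.9% and 25.6%. For ribosome density the shares were far smaller, 0.0938% higher (10 genes) and 0.816% lower (87 genes). These counts include DPP4 and are no test of it. With the dish as a block, which pairs input and footprints of 1 lysate, 31 genes were called higher and 127 lower in density.

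Apart from DPP4, for which no test is given, the genes with a call of higher density included PROSER1, SLIT2, GTF2A2, CSNK1A1, C11orf24, CGGBP1, ERLIN1 and PACS1. All of those called had input changes of -1.63 to 0.27 on the log2 scale, against 1.64 for DPP4. SLIT2, a secreted guidance protein, was the closest to DPP4 in direction, with an input change of 0.27 and a density change of 1.52.

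Input and density changes at least as high as those of DPP4 were found together in 3 further genes. APOL1, an apolipoprotein of innate defence, had changes of 3.99 in input and 2.08 in density. UBA7, the activating enzyme for the ubiquitin-like protein ISG15, had 3.46 and 4.27. PIK3IP1, an inhibitor of PI3-kinase, was nearest to DPP4 with 1.89 and 1.28. Summed over the DMSO input libraries, they had 2, 4 and 13 counts in the order named, and their fitted values depend on the handling of such low counts. For APOL1 the ratio of summed input CPM was 18.7 with a 95% counting interval of 4.77 to 161, and for UBA7, with 1 footprint count in DMSO, that of footprints was 359 with an interval of 64.0 to 14198. The SE of the density change was 1.23 for APOL1, 0.99 for UBA7 and 0.50 for PIK3IP1. None of these 3 genes could have passed the count filter without its trametinib input libraries, so no test of them is given.

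**Figure D2:**
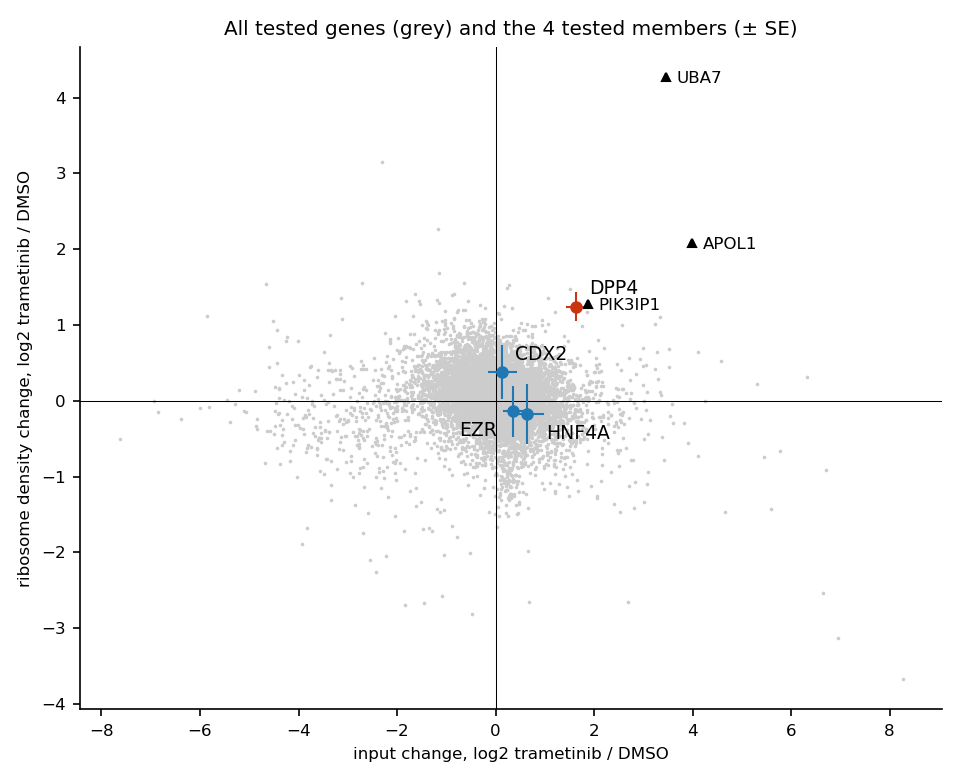
Input change (horizontal axis) against ribosome density change (vertical axis), both log2 of trametinib over DMSO, for 10663 tested genes (grey), the 4 tested members (points with SE) and the 3 further genes at or beyond DPP4 on both axes (triangles). DPP4 lies in the sparse upper right at 1.64 and 1.24, while EZR, CDX2 and HNF4A lie within the bulk of genes.

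To show the sequence that initiating ribosomes read, the start codons of 7 of the 8 members, all but CDH17, (ATG in capitals) are printed with 9 bases before and 8 after, from the GRCh38 genome and the MANE Select transcripts of Gencode 44. That of DPP4 lies at chr2:162073979-162073981 on the minus strand, 234 bases into its mRNA. The deposited counts are sums over a reading frame and hold no position, so these letters are context and not a measurement.

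DPP4: acgccgacgATGaagacacc
EZR: aaaccgaaaATGccgaaacc
CDX2: ctcgccaccATGtacgtgag
HNF4A: ggcttggccATGgtcagcgt
KRT20: gaatctccaATGgatttcag
CEACAM1: ggagacaccATGgggcacct
VIL1: tcactcaccATGaccaagct

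A purine 3 bases before the ATG and a G right after it are the most conserved positions around human start codons. DPP4, EZR, CDX2, VIL1 and CDH17 have the purine without the G, KRT20 has the G without the purine, and CEACAM1 and HNF4A have both. Over 15163 genes of the table with a matched transcript, 86.8% had the purine, 52.6% the G and 45.3% both. The leaders before the start codon measured 234 bases in DPP4, 309 in CDX2, 125 in EZR, 106 in HNF4A, 107 in CEACAM1, 93 in CDH17 and 57 in KRT20 and VIL1, with a median of 139 over all genes. None of the members' transcripts opens with a C followed by 4 pyrimidines, the pattern of 5'TOP mRNAs, which 5.18% of all genes showed.

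EZR (chromosome 6, 158765741 to 158819368, minus strand) encodes ezrin, which ties actin filaments of microvilli to the membrane. It was the most abundant member by far. In DMSO input it was at 2091, 1227 and 1253 CPM, and in trametinib input at 1606, 2100 and 2078 CPM. DMSO dish 1 lay within the trametinib range and the other 2 DMSO dishes below it. The input change of 0.35 (SE 0.20) on the log2 scale did not pass the test (edgeR adjusted p = 0.207).

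EZR footprints were at 4838, 2705 and 2779 CPM with DMSO and at 3515, 3885 and 4452 CPM with trametinib, so that the highest library was again DMSO dish 1. The footprint change was 0.13 (SE 0.23, edgeR adjusted p = 0.657). Without the DMSO dish 1 library of that kind, EZR was called higher in both, by 0.65 in input (edgeR adjusted p = 0.00199) and by 0.47 in footprints (edgeR adjusted p = 0.00587). Reads that ezrin shares with its relatives radixin and moesin were kept only where they fell in 1 gene.

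EZR footprints per input were 2.31, 2.20 and 2.22 with DMSO and 2.19, 1.85 and 2.14 with trametinib. The treatments did not overlap, though by a narrow margin (2.20 against 2.19), with the DMSO dishes slightly above. Dish 1 did not stand out in this ratio. The density change in the fit was -0.14 (SE 0.34, edgeR adjusted p = 0.966), and it was -0.14 without both DMSO libraries of dish 1 and 0.19 without its footprint library alone.

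**Figure D3:**
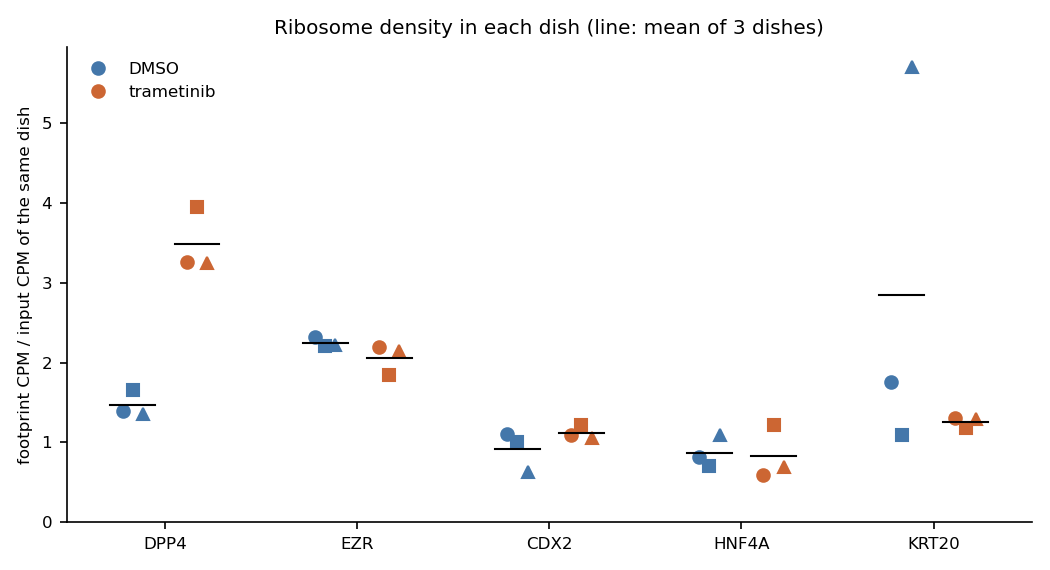
Ribosome density, as footprint CPM over input CPM of the same dish (vertical axis, from 0), for the 5 members with input counts in every library; circle, square and triangle are dishes 1, 2 and 3 and lines are means. DPP4 dishes with trametinib (3.24 to 3.95) lie above those with DMSO (1.35 to 1.66), and the KRT20 value of 5.69 rests on 2 input counts.

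KRT20 (chromosome 17, 40875889 to 40885242, minus strand), a keratin of mature surface colonocytes, had 6, 11 and 2 input counts with DMSO and 10, 8 and 9 with trametinib. The sums of 19 and 27 gave a ratio of 1.61, with a 95% interval of 0.861 to 3.06 that covers counting error only. Its footprints were 63, 41 and 74 with DMSO and 99, 58 and 61 with trametinib, or 4.13 ± 0.342 and 4.67 ± 0.587 CPM. The footprint groups overlapped, and the ratio of the sums was 1.14 (0.934 to 1.40). With a filter on libraries of either kind, KRT20 entered the test and was not called in input, footprints or density (edgeR adjusted p = 0.342, 0.662 and 0.904). For this keratin, a footprint difference as large as that of DPP4 lay outside the counting interval.

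VIL1 (chromosome 2, 218419121 to 218453295, plus strand) encodes villin, the actin bundling protein of microvilli. It had 0 counts in all 6 input libraries, which allows up to 0.364 CPM over the DMSO group and 0.412 CPM over the trametinib group. Its footprints numbered 2, 0 and 0 with DMSO and 2, 1 and 1 with trametinib. Villin was thus at the limit of detection in these cells and no difference was detectable at this depth (ratio 1.87, interval 0.268 to 20.6).

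CDH17 (chromosome 8, 94127162 to 94217303, minus strand), the liver-intestine cadherin, had 1 input count in the 6 libraries together. Its footprints were 1, 1 and 1 with DMSO and 8, 14 and 4 with trametinib. The trametinib libraries were all above the DMSO ones, and the sums of 3 and 26 stood in a ratio of 8.09 with an interval of 2.48 to 41.8. CDH17 had too few counts for the filter on input libraries and for that on libraries of either kind, so no test of it is given. The level remained low, at 0.566 ± 0.349 CPM with trametinib, which is 0.227 CPM per kilobase of coding length against 46.9 for DPP4, and the missing input leaves its density unmeasured.

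CEACAM1 (chromosome 19, 42507304 to 42561234, minus strand), an adhesion molecule of the apical surface, had 0, 1 and 1 input counts with DMSO and 0, 1 and 2 with trametinib. Footprints were 3, 5 and 6 with DMSO and 6, 2 and 10 with trametinib. The footprint groups overlapped at 0.351 ± 0.170 and 0.416 ± 0.344 CPM, and the 95% interval of their ratio was 0.564 to 2.61. CEACAM1 belongs to a family of near-identical genes, and reads that several of them share were left out, so its counts are uncertain.

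CDX2 (chromosome 13, 27960918 to 27969315, minus strand) encodes the homeobox factor that specifies intestinal identity. Input counts were 29, 28 and 50 with DMSO and 43, 33 and 28 with trametinib, or 10.3, 9.90 and 19.3 CPM against 16.8, 14.0 and 11.8 CPM. The groups overlapped and the input change was 0.13 (SE 0.30, edgeR adjusted p = 0.766). In footprints CDX2 was at 11.4, 9.95 and 12.3 CPM with DMSO and at 18.3, 17.0 and 12.4 CPM with trametinib.

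The CDX2 footprint groups did not overlap, though by a narrow margin. How many of all tested genes separate in this way was not counted, for footprints or for density. The change of 0.44 (SE 0.18) missed the threshold (edgeR adjusted p = 0.068). It passed without DMSO dish 1 (0.45, edgeR adjusted p = 0.0451), without trametinib dish 3 (0.59, edgeR adjusted p = 0.0222) and with scaling by library totals (0.62, edgeR adjusted p = 0.0183). The other fits that left out 1 footprint library did not call it (0.33 to 0.52, edgeR adjusted p up to 0.248). Densities of 1.11, 1.00 and 0.637 with DMSO and 1.09, 1.22 and 1.05 with trametinib overlapped (change 0.38, SE 0.35, edgeR adjusted p = 0.870).

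HNF4A (chromosome 20, 44355699 to 44432845, plus strand) encodes a nuclear receptor that activates brush border genes. Its input counts were 22, 15 and 11 with DMSO and 28, 14 and 24 with trametinib, with an input change of 0.64 (SE 0.34, edgeR adjusted p = 0.165). Footprints were at 6.36, 3.73 and 4.64 CPM with DMSO and at 6.45, 7.24 and 6.97 CPM with trametinib. They did not overlap, but DMSO dish 1 reached almost to the trametinib range. The footprint change of 0.40 (SE 0.21) was not called (edgeR adjusted p = 0.139), and it was called without DMSO dish 1 (0.63, edgeR adjusted p = 0.0104) and with library totals (0.58, edgeR adjusted p = 0.0391). The other fits that left out 1 footprint library did not call it (0.27 to 0.45, edgeR adjusted p up to 0.313).

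HNF4A densities were 0.815, 0.703 and 1.09 with DMSO and 0.588, 1.22 and 0.689 with trametinib. They overlapped, and the density change was -0.17 (SE 0.40, edgeR adjusted p = 0.965), or -0.25 without both DMSO libraries of dish 1. Of the 3 members tested apart from DPP4, edgeR thus called 0 in input, footprints or density, against the shares of all genes given above. At an unadjusted p under 0.05 there was 1 footprint change, that of CDX2, against 6004 among all 10663 tested genes. DESeq2 also called 0 of the 3. Without the DMSO dish 1 footprint library, all 3 were called higher in footprints, when 29.8% of all tested genes were. Without the DMSO dish 1 input library, EZR alone of the 3 was called higher in input, against 16.6% of all genes.

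Per kilobase of coding length, the order of members in DMSO input was EZR (865 ± 279 CPM per kb), CDX2 (14.0 ± 5.66), DPP4 (4.39 ± 0.360), HNF4A (4.26 ± 1.35) and KRT20 (1.78 ± 1.23), followed by CEACAM1 (0.156 ± 0.136), CDH17 and VIL1. The ranges of mean ± SD overlapped for the neighbours DPP4 and HNF4A and for HNF4A and KRT20. In trametinib footprints DPP4 (46.9 ± 1.62 CPM per kb) stood above CDX2 (16.9 ± 3.30), HNF4A (5.07 ± 0.295) and KRT20 (3.66 ± 0.461). DPP4 thus ranked below EZR and CDX2 in DMSO input and below EZR alone, at 2244 ± 268, in trametinib footprints.

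Over the 12 libraries, the tested genes with the pattern most like DPP4 (Pearson r of log2 CPM, over the 9881 genes whose normalized count averaged 50 or more) were CXADR (r = 0.984), DSC3 (0.984), RAB31 (0.983), GNAS (0.982) and CACNA2D2 (0.980). The 12 points fall into 4 groups of 3 libraries, so r is given as a description. CXADR is a tight junction protein that serves as the coxsackievirus and adenovirus receptor, and its mean level went from 28.0 to 51.7 CPM in input and from 39.3 to 111 CPM in footprints. DSC3 is a desmosomal cadherin, RAB31 a small GTPase of vesicle traffic, GNAS the stimulatory G protein subunit and CACNA2D2 a calcium channel subunit. Their density changes of 0.38 to 0.61 on the log2 scale were below the 1.24 of DPP4. Of the members, EZR (r = 0.574) ranked 1980th, CDX2 (0.504) 2383rd and HNF4A (0.409) 2936th in likeness to DPP4.

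**Figure D4:**
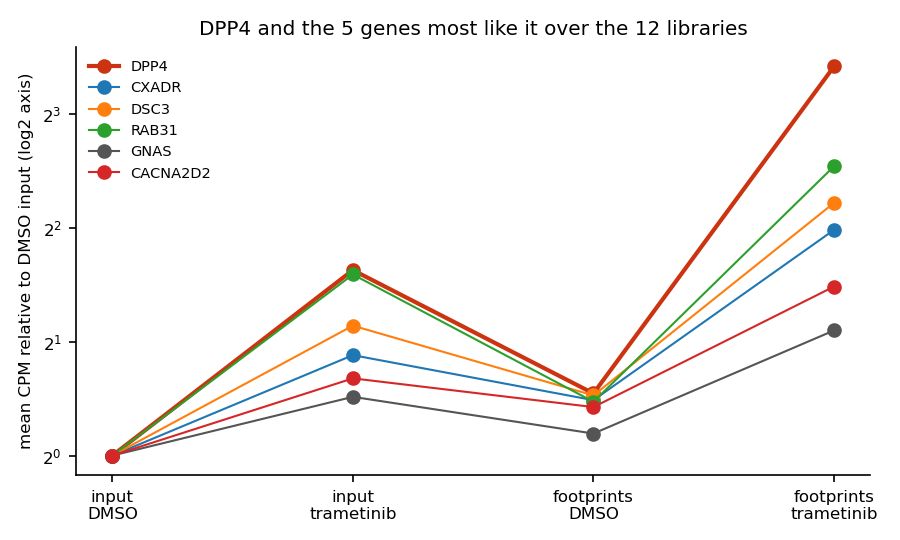
Mean CPM of 3 libraries relative to DMSO input (vertical log2 axis) in the 4 groups (horizontal axis) for DPP4 and the 5 genes most like it. All 6 lines rise in trametinib input and most in trametinib footprints, and DPP4 ends highest.

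Further genes of the enterocyte program were taken from lists of known function, which were chosen with earlier results of these data known. Of 32 brush border enzymes and transporters, 23 had a row and 5 passed the filter. In input, ENPEP, the glutamyl aminopeptidase, rose from 10.9 to 20.7 CPM (log2 change 0.93, edgeR adjusted p = 0.0125), and CA2, a cytosolic carbonic anhydrase, fell from 38.7 to 19.7 CPM (-0.96, edgeR adjusted p = 0.00802). The other 3 did not pass in input, where 15.4% of all tested genes were called higher and 16.8% lower. In footprints 2 were higher and 1 lower, against 23.9% and 25.6% of all tested genes. The peptide transporter SLC15A1, named here after its values were seen, was the second one higher (0.79, edgeR adjusted p = 0.0425). The input call of ENPEP ended without trametinib library 1 (0.83, edgeR adjusted p = 0.0588). The footprint calls of ENPEP and SLC15A1 each ended in 4 of the 6 fits that left out 1 library (changes of 0.46 to 0.60 and 0.60 to 0.80, edgeR adjusted p up to 0.103 and 0.159). The median input change of these 5 genes was 0.73, against -0.00145 over all genes. Their summed input level, with all 23 rows, was 68.2 to 80.0 CPM with DMSO and 66.3 to 76.0 CPM with trametinib.

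Genes of the microvillus cytoskeleton and its adhesion complex were better represented, with 15 of 25 tested. Input was called higher for 8 of them and lower for 1 (15.4% and 16.8% of all tested genes), footprints for 7 and 1 (23.9% and 25.6% of all). USH1C, the scaffold harmonin that links protocadherins at the tips of microvilli, rose from 27.0 ± 2.63 to 68.8 ± 8.81 CPM in input (1.36, edgeR adjusted p = 9.52e-05). EPS8, an actin capping and bundling protein, rose from 122 to 223 CPM (0.88), and RDX, the ezrin relative radixin, from 179 to 318 CPM (0.84). BAIAP2L1, a membrane curving actin regulator, fell from 87.2 to 44.5 CPM (-0.96). These 4 calls held whichever library was left out, while those of COBL, ESPN and FLII, named for this reason, ended in 3, 1 and 4 of the 6 fits (edgeR adjusted p up to 0.103). The summed input level of the list was 1887 to 2082 CPM with DMSO and 2629 to 2786 CPM with trametinib, and its median input change was 0.45. With library totals as the scaling, 11 of the 15 were called higher in footprints. That scaling also raised the number of all tested genes called higher in footprints from 2545 to 3577 of 10663.

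Of 22 transcription factors of intestinal differentiation, 10 were tested. ELF3, an epithelial ETS factor, rose from 114 ± 20.0 to 674 ± 33.2 CPM in input (2.58, SE 0.16, edgeR adjusted p = 1.82e-07) and from 144 to 607 CPM in footprints. KLF4, a factor of post-mitotic epithelium, fell from 43.6 ± 26.1 to 15.2 ± 3.27 CPM in input (-1.51, edgeR adjusted p = 0.00705). Without DMSO dish 1 the KLF4 change was -0.89 in input (edgeR adjusted p = 0.00852) and -0.84 in footprints (edgeR adjusted p = 0.00386), against -1.53 in footprints with it. The other 8 did not pass in input, where 15.4% of all tested genes were called higher and 16.8% lower. In footprints 3 were higher (ELF3, GATA6 and HNF4G) and 3 lower (KLF4 and VDR among them), where GATA6, HNF4G and VDR are named after their values were seen. These shares are near the 23.9% higher and 25.6% lower of all tested genes. The footprint calls of GATA6, HNF4G and KLF4 ended in 3, 2 and 1 of the 6 fits that left out 1 library (edgeR adjusted p up to 0.0692, with changes of 0.58 to 0.59, 0.52 to 0.56 and -1.38). The median input change of the 10 was 0.17.

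Of 22 surface and keratin genes of colonocytes and epithelium, 7 were tested, and 4 were higher in input (15.4% of all tested genes) and 5 in footprints (23.9% of all). There were 0 lower in either at an adjusted or unadjusted p under 0.05 in edgeR. Of all tested genes, 16.8% were called lower in input and 25.6% in footprints. KRT19, a simple epithelial keratin, rose from 1607 ± 291 to 3798 ± 344 CPM in input (1.25, edgeR adjusted p = 6.89e-05), and KRT8, its type II partner, from 2341 to 3751 CPM (0.69). TSPAN1, a tetraspanin, rose from 11.6 to 30.5 CPM (1.39), and CDH1, which encodes E-cadherin, from 99.1 ± 45.2 to 188 ± 5.21 CPM (0.93). EPCAM, the epithelial adhesion molecule, named after its values were seen, was the fifth one higher in footprints (0.44, edgeR adjusted p = 0.0209). The CDH1 input call ended without DMSO library 2 (0.80, edgeR adjusted p = 0.0605), and the EPCAM footprint call in 4 of the 6 fits (0.41 to 0.48, edgeR adjusted p up to 0.0848). The median input change was 0.69.

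Of 21 secretory lineage genes, 14 had a row and 2 were tested. In input 1 was called higher (15.4% of all tested genes), and in footprints 1 higher and 1 lower (23.9% and 25.6% of all). FCGBP, a protein of goblet cell mucus, rose in input from 10.3 ± 6.28 to 26.2 ± 2.89 CPM (1.34, edgeR adjusted p = 0.00812) and in footprints (1.23, edgeR adjusted p = 0.0315). The footprint call ended in 4 of the 6 fits without 1 library (0.88 to 1.18, edgeR adjusted p up to 0.101), and the change was 1.89 without DMSO dish 1. GFI1, a repressor in secretory precursors, did not pass in input (-0.26) and fell in footprints (-1.03, edgeR adjusted p = 0.005). Among 9 relatives and binding partners of DPP4, 6 were tested. In input 1 was called lower (16.8% of all tested genes), and in footprints 1 higher and 1 lower (23.9% and 25.6% of all). DPP9, a cytosolic dipeptidyl peptidase, fell in input from 77.0 to 47.8 CPM (-0.68, edgeR adjusted p = 0.0247). In footprints DPP8, its closest relative, was higher (0.35, edgeR adjusted p = 0.0279) and APEH, the acylpeptide hydrolase, lower (-0.46, edgeR adjusted p = 0.00914). These 3 calls did not hold throughout: with 1 library left out, that of DPP9 ended in 4 of 6 fits (-0.74 to -0.50), that of DPP8 in 4 (0.29 to 0.40) and that of APEH in 1 (-0.45), at edgeR adjusted p values of 0.0520 to 0.120. ADA, adenosine deaminase, which binds DPP4 at the cell surface, did not pass in input (0.25) or footprints (0.13).

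For ribosome density, edgeR and DESeq2 called 0 of the 46 tested genes of the 7 lists, which do not hold DPP4 or the other members. Few genes were called at all: 0.0938% higher and 0.816% lower in edgeR, and 37 and 150 genes in DESeq2. At an unadjusted p under 0.05 there was 1 list gene in edgeR and 2 in DESeq2. In edgeR this held for 939 of all 10663 tested genes. Their median density change was 0.07, as over all genes, and the median SE of a density change was 0.266. Changes of this size or somewhat larger were therefore not resolved at the depth of the input. The smallest density gain that edgeR called among all tested genes was 0.87 (PACS1, SE 0.16). Without DMSO dish 1, 9 genes of the microvillus list were called higher and 1 lower, in input as in footprints. Of all tested genes, the input of 16.6% was then called higher and of 18.0% lower, while footprints were higher for 29.8% and lower for 30.5%. For the transcription factors, input calls were then 2 higher against 1 lower, and footprint calls 4 against 3. The colonocyte list reached 5 higher in input and 6 in footprints. The DPP4 relatives then had 3 lower in footprints, and brush border and secretory counts were as before.

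**Figure D5:**
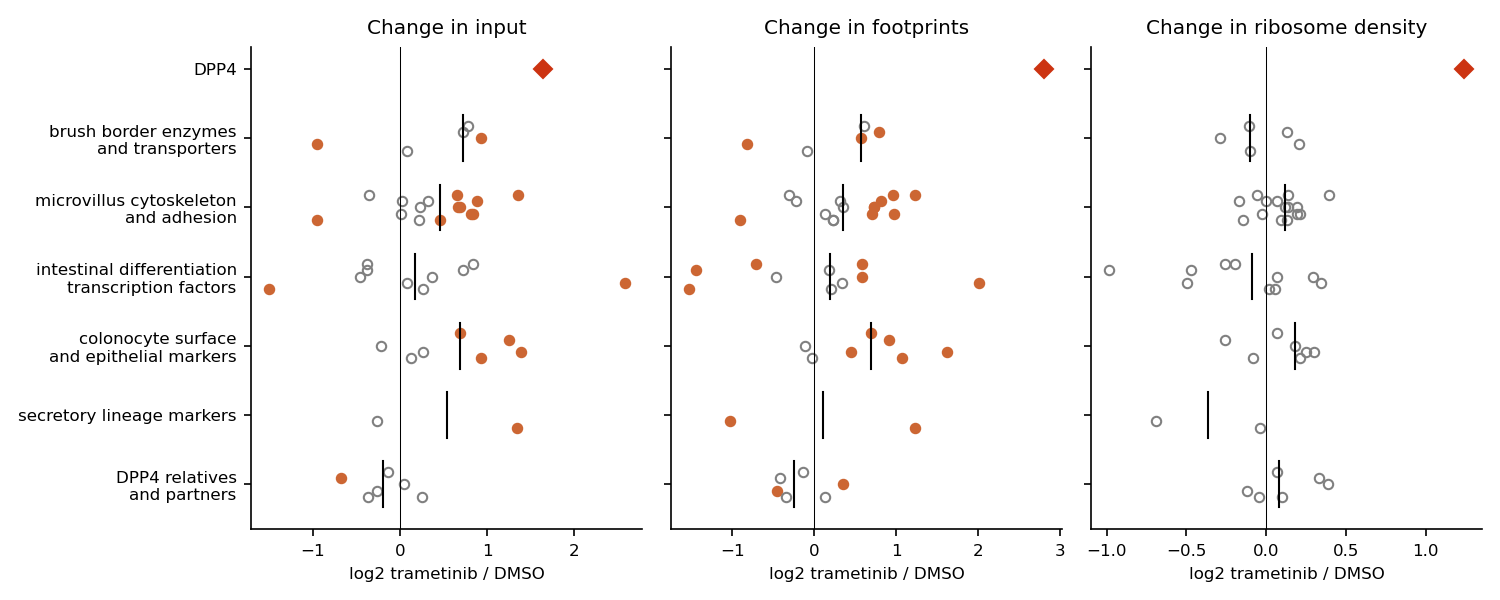
Log2 change of trametinib over DMSO (horizontal axis) in input, footprints and ribosome density for DPP4 (diamond) and the tested genes of 6 lists (circles, filled where the adjusted p was below 0.05; lines are medians). DPP4 lies at 1.24 in density, where no listed gene is filled.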

How the data were processed

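Ribo-seq was done by the authors in HCT116 cells. Per the study's methods, adapters were trimmed with FASTX, rRNA and tRNA reads were removed with Bowtie 1.2.2 allowing 2 mismatches, and reads of 25 to 35 nt in the reading frame of a single gene symbol were counted on Gencode 38 basic transcripts. The deposited table holds these raw counts for 12 libraries, and beside them the authors' normalized counts, a signal equal to the count times 1 constant per library, which served only to check that relation. Columns with the authors' own fold changes and p-values were not used either.

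From the raw counts, the 10663 genes that reached 10 counts in 3 or more input libraries were tested with edgeR 4.0.16 (quasi-likelihood, TMM) in R 4.3.3, for input and for footprints within their own 6 libraries and for ribosome density as the interaction of library kind and treatment over 12 libraries. The study used a likelihood ratio test of DESeq2 1.46.0, and DESeq2 1.42.0 was run as an alternative. SE is the log2 change divided by the root of F. Log2 values for the likeness to DPP4 had a prior count of 2. Scripts were tested on simulated data. The members and the gene lists were chosen with earlier results of these data known. Within a list, up to 4 genes called in input with the largest change and a mean normalized count of at least 50 were named. Some genes that the rules would name are not reported here. Gene positions are from Gencode 44. Replicate numbers join the input and footprints of 1 lysate per the study's methods. Intervals are 95% exact and a count of 0 allows up to 3 counts a group, and both cover counting error only.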

Additional observations from a re-analysis of the deposited data

How the results depend on the processing

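DPP4 had log2 changes of 1.57 to 1.72 in input, 2.79 to 2.99 in footprints and 1.12 to 1.35 in density under all settings run, with 2.99 in footprints for library totals and 2.87 for 1 fit over all 12 libraries. Leaving out 1 library at a time, 1069 to 1767 genes were higher in input. In density, 1 to 12 were then higher and 49 to 101 lower. The lowest came without trametinib input library 2 (1069), trametinib footprint library 1 or 2 (1) and trametinib footprint library 2 (49). The highest came without DMSO input library 1 (1767), DMSO input library 3 or DMSO footprint library 1 (12) and DMSO footprint library 1 (101). Without both DMSO libraries of dish 1, 21 genes were higher and 129 lower in density. That setting was chosen after seeing the data, as were the lists without that dish. Genes higher in density numbered 5 with median-of-ratios size factors, 27 with library totals, 6 with the filter on either kind, 37 with DESeq2 and 31 with the dish as replicate block, and DESeq2 called 150 lower. The cause was not tested.

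Members other than DPP4 called higher were 0 to 1 in input and 0 to 3 in footprints with 1 library left out, and 2 in footprints with library totals. CDH17 entered the fits only with no filter, on very few counts, and no test of it is given. Signs turned when 1 library was left out for CDX2 in input (-0.013 without DMSO 1, -0.037 without DMSO 2, -0.0075 without trametinib 1, and up to 0.51), for CDX2 density (-0.027 without DMSO input 3, range up to 0.55), and, without DMSO footprints 1, for the densities of EZR (0.19, range from -0.44) and HNF4A (0.056, range from -0.45), which kept their sign without both libraries of that dish. None of these was called. For the 3 tested members, 134 of 147 alternative values kept direction and side of the threshold.

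Library totals moved the median footprint change of all genes to 0.165 and the median density change to 0.176, and the share of higher among called footprint changes from 48.3% to 64.8% (3577 higher, 1944 lower), among density calls from 10.3% to 25.7%. Replicate numbers across treatments were not shown to pair the dishes (r of deviations 0.0659 to 0.365 in input, 0.114 to 0.293 in footprints). A replicate block on them gave 11 genes higher and 91 lower in density and 1959 higher in input, and left the DPP4 density change at 1.24. The input depth limits density: DPP4 had 26 to 29 input counts per DMSO library.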

Other observations

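Within 500 kb of DPP4 on chromosome 2, 4 further genes of the table were found, a window set after the values were seen. IFIH1, the RNA sensor MDA5, rose from 17.1 to 37.0 CPM in input (log2 change 1.12, edgeR adjusted p = 0.00283) and from 19.7 to 58.9 CPM in footprints (1.51, edgeR adjusted p = 1.39e-05), with a density change of 0.47 that did not pass (edgeR adjusted p = 0.638). GCA, which encodes the calcium-binding protein grancalcin, rose from 23.9 to 37.4 CPM in input (0.66, edgeR adjusted p = 0.0263) and from 82.2 to 130 CPM in footprints (0.59, edgeR adjusted p = 0.00225), with a density change of 0.01. The GCA input call ended in 4 of the 6 fits that left out 1 library (0.54 to 0.73, edgeR adjusted p up to 0.118). FAP, the closest paralog of DPP4 and the nearest gene of the table on that side, had 1 input count and 1 footprint count in all 12 libraries. SLC4A10, on the other side, had 1 input count and 3 footprint counts.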
